A study of Mus musculus with 15 samples.

Results

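The genes described here are the mouse small proline-rich protein (*Sprr*) genes and late cornified envelope (*Lce*) genes, taken as every gene of the count table whose symbol starts with Sprr or Lce followed by a digit. There were 38 of them among the 55487 genes of the table: 17 *Sprr* genes (2 *Sprr1*, 13 *Sprr2*, *Sprr3* and *Sprr4*) and 21 *Lce* genes (14 *Lce1*, 6 *Lce3* and *Lce6a*). They lie together on chromosome 3 of GRCm38, from the start of *Sprr2a1* at 92215799 to the end of *Lce1m* at 93019060. RNA-Seq had been performed on conjunctival tissue of female WT mice (strain given as BALC/c in the labels and as BALB/c in the methods) that were 9 to 12 weeks old, 5 libraries in each of 3 groups. All mice were sensitized in the skin of the ear with MC903 (calcipotriol) and ovalbumin (OVA) for 7 days, so no group was free of skin inflammation. The eyes were later challenged daily for 7 days, either with PBS (PBS group, antibody given as N/A) or with OVA in mice that received an isotype control antibody (isotype group) or a blocking antibody to the IL-4 receptor α chain (anti–IL-4Rα group), both at 25 mg/kg. The sample titles number a mouse for each library, and the p-values measure the spread between these libraries.

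When keratinocytes reach the end of differentiation, they replace their membrane with the cornified envelope, a shell of proteins cross-linked by transglutaminases. Loricrin and involucrin form much of that shell, SPRR proteins act as flexible bridges within it, and LCE proteins are added late. Members of these families are known to be regulated separately: *Sprr* genes and the *Lce3* group are known to rise in stressed, wounded or inflamed epithelium, whereas the *Lce1* group belongs to normal epidermis. IL-4 and IL-13 signal through IL-4Rα and the transcription factor STAT6, and *Sprr2a* is a known target of IL-13 in mucosal epithelium, including the airway and gut. The comparison of the isotype group with the PBS group asks how these genes differed after OVA challenge of the eye with the isotype antibody given. No antibody is listed for the PBS group, so effects of OVA challenge and of antibody dosing cannot be told apart there. The comparison of the anti–IL-4Rα group with the isotype group asks how much of the difference depended on the receptor.

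The sequences before the start sites are shown for 5 members that the results turn on: *Sprr2a3*, which had the largest difference between the antibody groups; *Sprr2h* and *Sprr2d*, close relatives of which the first was called in both comparisons and the second in neither; and *Sprr1b* and *Sprr1a*, the pair of *Sprr1* genes that differed most in size of response. The sequences were read from RefSeq promoter windows on GRCm38.p6 (250 bases before to 50 after the start, found for 34 of the 38 members). They were cut at the first annotated exon and are written 5′ to 3′ on the gene's strand. They cover chr3:92285054-92285303 (plus strand) for *Sprr2a3*, chr3:92385435-92385684 (plus strand) for *Sprr2h*, chr3:92338890-92339139 (plus strand) for *Sprr2d*, chr3:92438790-92439029 (minus strand) for *Sprr1b* and chr3:92485896-92486131 (minus strand) for *Sprr1a*. Capitals mark matches to 3 motifs: TTC and GAA with any 4 bases between them, a form that STAT6 is known to bind; TGANTCA, the form bound by AP-1; and TATAAA, the TATA box.
Sprr2a3: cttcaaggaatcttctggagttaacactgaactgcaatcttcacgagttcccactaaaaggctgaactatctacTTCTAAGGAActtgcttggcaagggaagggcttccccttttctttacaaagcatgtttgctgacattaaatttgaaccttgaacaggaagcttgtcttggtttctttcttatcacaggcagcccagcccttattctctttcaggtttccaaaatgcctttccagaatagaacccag
Sprr2h: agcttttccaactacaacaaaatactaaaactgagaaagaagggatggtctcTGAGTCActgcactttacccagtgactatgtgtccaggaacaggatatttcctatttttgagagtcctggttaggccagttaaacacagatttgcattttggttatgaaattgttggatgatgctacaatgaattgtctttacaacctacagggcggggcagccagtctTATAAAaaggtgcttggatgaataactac
Sprr2d: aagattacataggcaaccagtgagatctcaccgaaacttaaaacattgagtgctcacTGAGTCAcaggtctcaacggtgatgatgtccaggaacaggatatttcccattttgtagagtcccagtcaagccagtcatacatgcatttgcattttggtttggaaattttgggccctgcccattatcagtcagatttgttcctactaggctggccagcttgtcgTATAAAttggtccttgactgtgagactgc
Sprr1b: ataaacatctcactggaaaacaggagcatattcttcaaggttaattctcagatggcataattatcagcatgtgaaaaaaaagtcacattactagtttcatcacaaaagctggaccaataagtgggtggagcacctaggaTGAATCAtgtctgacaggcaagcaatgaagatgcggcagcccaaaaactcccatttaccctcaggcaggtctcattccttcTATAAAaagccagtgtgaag
Sprr1a: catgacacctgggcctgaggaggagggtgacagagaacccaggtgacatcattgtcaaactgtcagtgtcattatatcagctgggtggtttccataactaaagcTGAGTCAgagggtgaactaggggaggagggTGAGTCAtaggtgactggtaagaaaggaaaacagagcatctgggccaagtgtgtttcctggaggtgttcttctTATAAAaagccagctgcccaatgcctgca

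The TTC and GAA pair was found in the windows of *Sprr2a1*, *Sprr2a2* and *Sprr2a3* and in no other member's window, starting 204, 204 and 176 bases before the RefSeq start. The windows of *Sprr2a1* and *Sprr2a2* were identical. The *Sprr2a3* window ends at 92285353, before the start of its annotated gene at 92285417. Distances, and motifs not found, thus depend on where a window was placed. AP-1 matches were found in the windows of *Sprr2b*, *Sprr2d*, *Sprr2e*, *Sprr2f*, *Sprr2h*, *Sprr2i* and *Sprr2k*, 193 to 198 bases before the start (with a second match at 182 in *Sprr2k*), in *Sprr1b* at 111 bases and in *Sprr1a* at 146 and 116 bases. All 7 of these *Sprr2* windows held TATAAA 29 bases before the start, and *Sprr1b*, *Sprr1a* and *Sprr3* held it at 30, 43 and 33 bases. None of the 20 *Lce* windows held the TTC and GAA pair or the AP-1 form. TATAAA was found in *Lce1d* and *Lce1m*, 30 and 29 bases before the start. In *Lce3e* and *Lce6a* it lay on the opposite strand, 243 and 218 bases before the start. Both strands were searched, and none of the motifs overlapped another in these windows. Of all 32851 mouse windows, 6.95% held the TTC and GAA pair, 7.81% the AP-1 form and 13.6% TATAAA. A match is a run of letters and not a measured binding site.

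Levels are given as CPM, counts per 1000000 of a library scaled with TMM factors, and members are compared with each other only per length, as FPKM. In the PBS group *Sprr1a* was the most abundant member, at 1059 ± 203 FPKM (SD, n = 5). The next were *Lce1a1* at 387 ± 76.9, *Lce1m* at 318 ± 70.8 and *Lce1c* at 227 ± 47 FPKM, and in that order the SD ranges of *Lce1a1* and *Lce1m*, and those of *Lce1m* and *Lce1c*, overlapped. *Lce3* and *Sprr2* genes were low by comparison: *Lce3f* was the highest *Lce3* gene at 25.1 ± 5.84 FPKM, and *Sprr2f* and *Sprr2a2*, at 26 ± 13.5 and 19.8 ± 12.3 FPKM, were the highest *Sprr2* genes. In the isotype group *Sprr2a2* (256 ± 121 FPKM) and *Sprr1b* (213 ± 90.5 FPKM) stood among the *Lce1* genes in abundance. Together the members took 0.212 to 0.350% of all counts in the PBS libraries, 0.328 to 0.562% in the isotype libraries and 0.153 to 0.266% in the anti–IL-4Rα libraries, of totals between 48622206 and 87744991 counts.

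A gene was tested if 5 or more libraries had 10 counts or more, which 37 of the 38 members did; *Sprr2c-ps*, a pseudogene, had 0 counts in all 15 libraries. A gene was called at an adjusted p under 0.05 (edgeR quasi-likelihood test, Benjamini-Hochberg adjustment over all 19006 genes tested). In the isotype group 14 members were higher than in the PBS group, against 9.53% of all genes tested, and 1 member, *Lce1m*, was lower, against 7.49%. In the anti–IL-4Rα group 16 members were lower than in the isotype group, against 8.13% of all genes tested, and 0 were higher, against 6.73% (DESeq2 and limma's voom also gave 0, and 0 had a positive difference at an unadjusted p under 0.05). All 14 members called higher in the isotype group were among the 16. Against the PBS group, 2 members were lower in the anti–IL-4Rα group (1.44% of all genes tested) and 0 were higher (2.28%), again with 0 by DESeq2 and voom. One of the members, *Sprr2k*, reached 10 counts in the isotype libraries only, so its passing the filter required it to be high there. Without it the counts were 13 and 15 of 36 tested. *Sprr2j-ps* also passed only through the isotype libraries. It reached 10 counts in 9 libraries, including all 5 of the isotype group, and in fewer than 5 of the others. *Sprr2j-ps* remains in all these counts. The 3 comparisons share groups and are not independent of each other.

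Calls were spread unevenly over the subfamilies. Both *Sprr1* genes, 7 of 12 tested *Sprr2* genes (6 of 11 without *Sprr2k*) and 5 of 6 *Lce3* genes were higher in the isotype group. By contrast 0 of 14 *Lce1* genes were, and *Lce6a*, *Sprr3* and *Sprr4* were not. The median log2 fold change for isotype against PBS was 2.63 over the *Sprr2* genes, 1.51 over the *Lce3* genes and -0.06 over the *Lce1* genes, beside -0.01 over all genes tested. For anti–IL-4Rα against isotype the medians were -2.76, -1.54 and -0.23, beside 0.01 over all genes. The isotype and PBS libraries did not overlap, with isotype the higher, for 16 of 37 members (6.85% of all genes tested), and the anti–IL-4Rα and isotype libraries did not overlap, with anti–IL-4Rα the lower, for 14 (4.96%). These counts and the *Sprr2* medians were taken with *Sprr2k* and *Sprr2j-ps* among the members. Since conjunctiva was sequenced as bulk tissue, fewer cells of a type and less RNA per cell cannot be told apart.

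**Figure D1:**
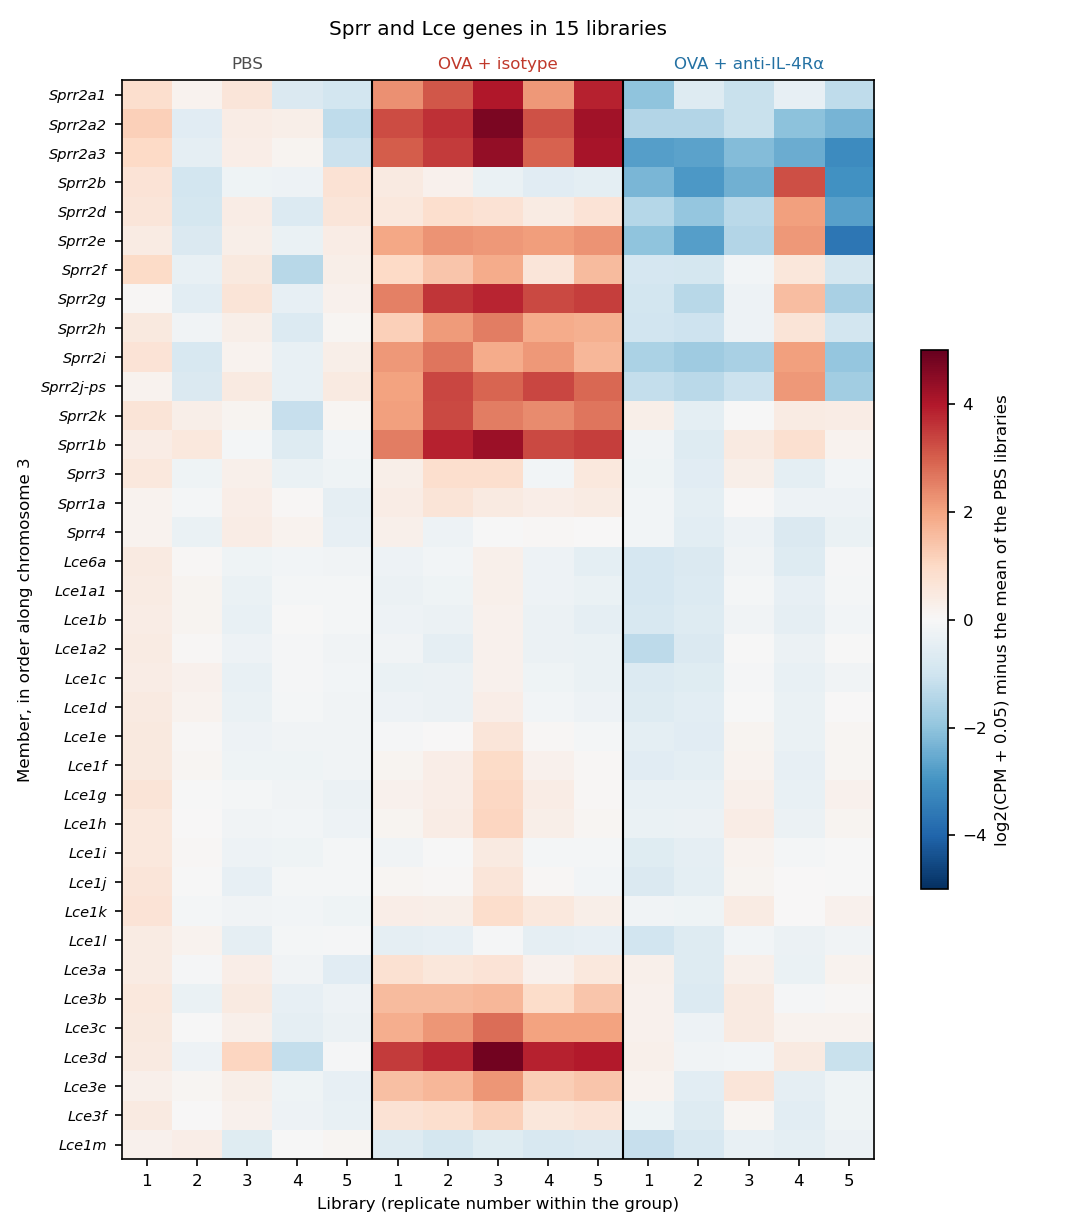
Heat map of the 37 tested members (rows, in their order along chromosome 3) in 15 libraries (columns, by group); color is log2(CPM + 0.05) minus the mean of the PBS libraries, red for higher and blue for lower. In the isotype libraries the red rows are *Sprr2* genes, *Sprr1b* and *Lce3b* to *Lce3f*, with the *Lce1* rows near white between them, and in library 4 of the anti–IL-4Rα group *Sprr2b*, *Sprr2d*, *Sprr2e* and *Sprr2i* are red while *Sprr2a1* to *Sprr2a3* are blue.

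*Sprr1a* and *Sprr1b* encode closely related envelope precursors, and their responses differed in size. *Sprr1b* was at 19.1, 20.9, 13.6, 9.36 and 13.1 CPM in the PBS libraries, at 85.4, 209, 286, 144 and 161 CPM in the isotype libraries and at 12.8, 9.27, 20.2, 25.6 and 16.7 CPM in the anti–IL-4Rα libraries. All isotype libraries were above all others, and the PBS and anti–IL-4Rα libraries overlapped. It was 11.6-fold higher in the isotype group than in the PBS group (log2 fold change 3.54 ± 0.35 SE, edgeR adjusted p = 0.000177), and 10.5-fold lower again in the anti–IL-4Rα group (log2 fold change -3.39 ± 0.35 SE, edgeR adjusted p = 0.000155). *Sprr1a*, already the most abundant member in the PBS group, was at 949, 775, 1050.2, 869 and 624 CPM in the PBS libraries, 1077, 1311, 1142, 1066 and 1113 in the isotype libraries and 759, 593, 858, 699 and 700.4 in the anti–IL-4Rα libraries. The isotype libraries again lay above the others, but by a small margin. *Sprr1a* was 1.34-fold higher (log2 fold change 0.42 ± 0.13 SE, edgeR adjusted p = 0.0394) and then 1.58-fold lower (log2 fold change -0.66 ± 0.13 SE, edgeR adjusted p = 0.0089). The first of these calls was lost in 6 of 15 fits that left out 1 library (highest edgeR adjusted p = 0.0945), namely those without PBS libraries 2, 4 or 5 or without isotype libraries 2, 3 or 5. Per 100 *Sprr1a* counts there were 1.08 to 2.69 *Sprr1b* counts in the PBS libraries, 7.93 to 25 in the isotype libraries and 1.56 to 3.67 in the anti–IL-4Rα libraries, so that the isotype range stood above both others. All 90-base stretches of both genes' transcripts were unique among annotated transcripts, and all their counts were whole numbers.

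Among the *Sprr2* genes, whose products are short envelope bridges, *Sprr2a2* carried most counts. It was at 113, 32.7, 62.9, 59.7 and 20.1 CPM in the PBS libraries, 473, 618, 1286, 447 and 899 in the isotype libraries and 17.8, 17.9, 22.4, 11.7 and 9.78 in the anti–IL-4Rα libraries. The isotype libraries were all above the PBS libraries (12.9-fold; log2 fold change 3.69 ± 0.46 SE, edgeR adjusted p = 0.000596) and above the anti–IL-4Rα libraries (46.7-fold; log2 fold change -5.55 ± 0.50 SE, edgeR adjusted p = 4.6e-05). *Sprr2a3* was at 37.8, 13.7, 23.9, 20.9 and 8.98 CPM in the PBS libraries, 153, 214, 395, 144 and 330.1 in the isotype libraries and 2.7, 2.91, 4.17, 3.36 and 2.05 in the anti–IL-4Rα libraries. Here the 3 groups did not overlap at all: *Sprr2a3* was 11.8-fold higher in the isotype group than in the PBS group (log2 fold change 3.55 ± 0.39 SE, edgeR adjusted p = 0.00031), 81-fold lower with anti–IL-4Rα than with isotype (log2 fold change -6.34 ± 0.46 SE, edgeR adjusted p = 7.04e-06), and 6.89-fold lower with anti–IL-4Rα than after PBS (log2 fold change -2.78 ± 0.40 SE, edgeR adjusted p = 0.00662; two-sided exact permutation p = 0.00794, the lowest value possible with 5 libraries a group).

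*Sprr2a1* was scarce, at 0.77, 0.475, 0.654, 0.229 and 0.193 CPM in the PBS libraries, 2.16, 3.92, 7.23, 2.04 and 6.59 in the isotype libraries and 0.0639, 0.241, 0.16, 0.296 and 0.142 in the anti–IL-4Rα libraries. Its libraries separated as those of *Sprr2a2* did (log2 fold change 3.22 ± 0.47 SE, edgeR adjusted p = 0.00131 for isotype against PBS; -4.59 ± 0.52, adjusted p = 0.000334 for anti–IL-4Rα against isotype). The gene models of *Sprr2a1* and *Sprr2a2* overlap, and only 6.79% and 6.44% of their 90-base stretches (the read length) occur in no other annotated transcript, compared with 59.4% for *Sprr2a3*, so how reads were divided among the 3 genes is uncertain and their values are best read as a sum. Summed, they were at 29.3 to 152 CPM in the PBS libraries, 593 to 1689 in the isotype libraries and 12 to 26.8 in the anti–IL-4Rα libraries, ranges that do not overlap. *Sprr2a2* was also lower with anti–IL-4Rα than after PBS (log2 fold change -1.86 ± 0.43 SE, edgeR adjusted p = 0.036), a call that was lost in 8 of 15 fits that left out 1 library (highest edgeR adjusted p = 0.0902), whereas that of *Sprr2a3* was kept in all 15 but lost with the epidermal marker score as a covariate (edgeR adjusted p = 0.0622). For *Sprr2a1* this difference was -1.37 ± 0.53 and not called (edgeR adjusted p = 0.139).

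For the other tested *Sprr2* genes, 97.0% to 100% of their 90-base stretches were unique. *Sprr2g*, annotated as a polymorphic pseudogene, was at 1.26, 0.814, 1.89, 0.898 and 1.41 CPM in the PBS libraries, 7.21, 14.7, 17.6, 12.3 and 13.8 in the isotype libraries and 0.618, 0.422, 1.01, 3.61 and 0.354 in the anti–IL-4Rα libraries, and the isotype libraries were above all others (log2 fold change 3.38 ± 0.54 SE, edgeR adjusted p = 0.00216, then -3.48 ± 0.55, adjusted p = 0.00345). *Sprr2h* was at 15.5, 9.92, 13.5, 6.92 and 11.8 CPM, 25.5, 49.3, 65.3, 40.8 and 38.5 CPM and 5.69, 5.33, 9.35, 17.4 and 5.9 CPM in the same order of groups. Its isotype libraries also lay above all others, 3.81-fold over the PBS group (log2 fold change 1.93 ± 0.35 SE, edgeR adjusted p = 0.00381) and 5.04-fold over the anti–IL-4Rα group (-2.33 ± 0.35, adjusted p = 0.00254). *Sprr2j-ps*, a pseudogene by its symbol but protein coding in the annotation, was at 0.137, 0.0509, 0.177, 0.0764 and 0.176 CPM in the PBS libraries, 0.613, 1.63, 1.19, 1.62 and 1.16 in the isotype libraries and 0.0213, 0.0151, 0.0291, 0.691 and 0 in the anti–IL-4Rα libraries. All its isotype libraries exceeded the PBS libraries (log2 fold change 3.31 ± 0.79 SE, edgeR adjusted p = 0.0139), while anti–IL-4Rα library 4 exceeded isotype library 1 (-3.19 ± 0.80, adjusted p = 0.0226). *Sprr2k* was near the limit of detection outside the isotype group, at 0.124, 0.0848, 0.0708, 0 and 0.0703 CPM in the PBS libraries and 0.0852, 0.0301, 0.0583, 0.0988 and 0.0944 in the anti–IL-4Rα libraries, against 0.408, 1.04, 0.606, 0.524 and 0.668 in the isotype libraries (log2 fold change 3.14 ± 0.43 SE, edgeR adjusted p = 0.000929, then -3.20 ± 0.44, adjusted p = 0.00142). *Sprr2j-ps* and *Sprr2k* were tested only because of their counts in the isotype libraries, so the p-values of both are not separate evidence of a difference.

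*Sprr2f* was at 26.6, 10.6, 19.6, 5.27 and 17 CPM in the PBS libraries, 27.6, 36.6, 50.6, 21.1 and 41.4 in the isotype libraries and 7.69, 7.41, 12.7, 20.4 and 7.53 in the anti–IL-4Rα libraries. The PBS and isotype libraries overlapped, and the difference was not called (log2 fold change 1.16 ± 0.40 SE, edgeR adjusted p = 0.0598), whereas the anti–IL-4Rα libraries all fell below the isotype libraries and that difference was called (-1.67 ± 0.41, adjusted p = 0.0205; not called without isotype library 3 or without anti–IL-4Rα library 1). For *Sprr2e* and *Sprr2i* every isotype library exceeded every PBS library, with *Sprr2e* at 1 to 2.28 CPM in the PBS libraries and 6.72 to 8.28 CPM in the isotype libraries, and *Sprr2i* at 0.373 to 1.13 and 2.26 to 4.57 CPM. Neither was called, with log2 fold changes of 2.11 ± 0.83 and 2.12 ± 0.72 (edgeR adjusted p = 0.0947 and 0.0587). *Sprr2b* and *Sprr2d* were not called between the PBS and isotype groups either, with log2 fold changes of -0.23 ± 1.06 and 0.52 ± 0.72 (edgeR adjusted p = 0.905 and 0.663). These 4 genes share the AP-1 and TATAAA matches described above with *Sprr2h* and *Sprr2k*. Whether these matches go with a response was not tested. The called genes *Sprr2g* and *Sprr2j-ps* had no window, and the calls of *Sprr2e* and *Sprr2i* changed when 1 library was left out, as described below.

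The large errors of *Sprr2b*, *Sprr2d*, *Sprr2e* and *Sprr2i* came with 1 library. In anti–IL-4Rα library 4 *Sprr2b* was at 14.6 CPM, against 0.142 to 0.277 CPM in the other 4 libraries of the group and a highest value of 2.56 CPM in any other library. *Sprr2d* was at 36.5 CPM there against 1.30 to 3.42, *Sprr2e* at 7.75 against 0.0944 to 0.583, and *Sprr2i* at 2.99 against 0.142 to 0.192 CPM. *Sprr2a2* and *Sprr2a3* were not raised in that library, at 11.7 and 3.36 CPM. The *Sprr2* genes are here divided into the *Sprr2a* trio and the other 9 tested genes, a division made after the values were seen and given with no test. The other 9 summed to 21.6 to 62.8 CPM in the PBS libraries, 85.9 to 162 in the isotype libraries, and 15.6 to 27.6 CPM in anti–IL-4Rα libraries 1, 2, 3 and 5, with 104 CPM in library 4. The trio made up 85.6 to 91.3% of *Sprr2* counts in the isotype libraries, 37.2 to 78.9% in the PBS libraries and 12.8 to 56.7% in the anti–IL-4Rα libraries, the lowest share being that of library 4.

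**Figure D2:**
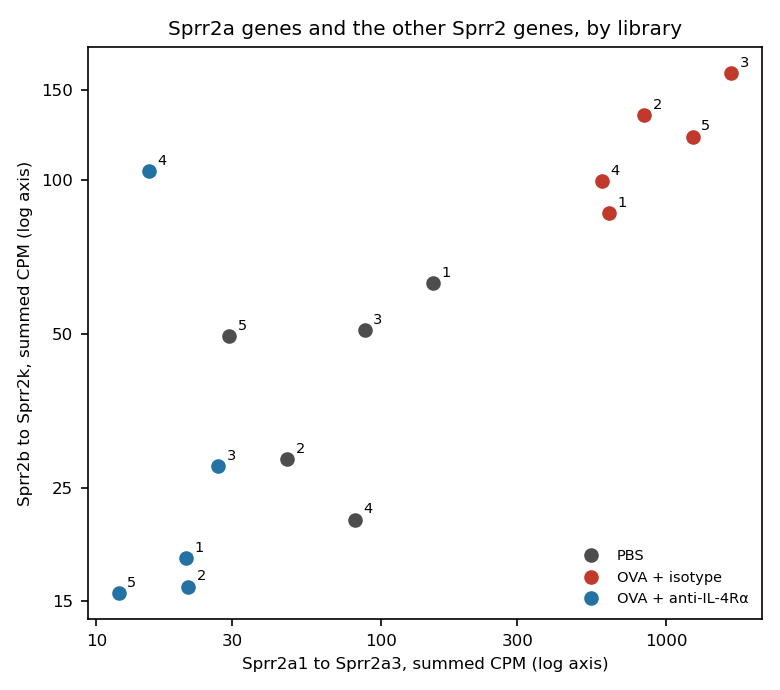
Summed CPM of *Sprr2a1* to *Sprr2a3* (horizontal, log axis) against summed CPM of *Sprr2b* to *Sprr2k* (vertical, log axis), 1 point per library with its replicate number, colored by group. The isotype libraries lie at the upper right, and anti–IL-4Rα library 4 lies at 15.3 CPM on the horizontal axis with the rest of its group but at 104 CPM on the vertical axis with the isotype libraries.

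Leaving out that library changed the calls of the *Sprr2b* to *Sprr2k* genes. *Sprr2e* was then higher in the isotype group than in the PBS group, with a log2 fold change of 2.11 (edgeR adjusted p = 0.00187), and so were *Sprr2i* at 2.12 (edgeR adjusted p = 0.000862) and *Sprr2f* at 1.16 (edgeR adjusted p = 0.045), while *Sprr2b* and *Sprr2d* stayed uncalled at -0.23 (edgeR adjusted p = 0.657) and 0.52 (edgeR adjusted p = 0.265). In the anti–IL-4Rα group all 9 were then below the isotype group, including *Sprr2b* at -2.77 (edgeR adjusted p = 0.00321) and *Sprr2d* at -2.42 (edgeR adjusted p = 0.00334). Below the PBS group were *Sprr2b* at -3.002 (edgeR adjusted p = 0.00887), *Sprr2d* at -1.91 (edgeR adjusted p = 0.0258), *Sprr2e* at -2.44 (edgeR adjusted p = 0.0155), *Sprr2i* at -2.07 (edgeR adjusted p = 0.017), *Sprr2j-ps* at -2.67 (edgeR adjusted p = 0.0492) and *Sprr2a3* at -2.82 (edgeR adjusted p = 0.0167), 6 members in place of 2, with *Sprr2a2* no longer called. In all, 17 members were then higher for isotype against PBS and 19 lower for anti–IL-4Rα against isotype. The share of all genes called in this fit is not given here, so whether the added calls are particular to the members was not tested. In the other 4 anti–IL-4Rα libraries *Sprr2b* was at most 0.277 CPM and *Sprr2d* at most 3.42 CPM, below every PBS and isotype library. Neither gene differed detectably between the isotype and PBS groups. In the fit of all 15 libraries neither was called for anti–IL-4Rα against isotype (log2 fold change 1.08 and -0.57, edgeR adjusted p = 0.494 and 0.606). Anti–IL-4Rα library 4 was singled out by its high values of these same genes. Leaving it out thus lowers its group by construction, and the adjusted p-values without it are not separate evidence. The study's methods mention outlier libraries without naming them, and whether this library is one of them is not known; the labels do not set it apart.

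*Sprr3*, an SPRR protein of wet stratified epithelia, and *Sprr4*, a minor SPRR protein of skin, were not called for isotype against PBS. *Sprr3* was at 45.2, 27.3, 37.9, 25.3 and 27.2 CPM in the PBS libraries, 39.3, 56.3, 57.1, 29.2 and 45.8 in the isotype libraries and 27.3, 21.7, 39.3, 22.4 and 28.9 in the anti–IL-4Rα libraries, and all 3 ranges overlapped. It was not called for isotype against PBS (log2 fold change 0.48 ± 0.22 SE, edgeR adjusted p = 0.139). It was called lower for anti–IL-4Rα against isotype (log2 fold change -0.71 ± 0.22 SE, edgeR adjusted p = 0.0446). That call was lost in 11 of 15 fits that left out 1 library (highest edgeR adjusted p = 0.109). It was kept only without PBS library 1, isotype library 1, isotype library 4 or anti–IL-4Rα library 3. *Sprr4* was at 46.9, 32.9, 52.5, 46.5 and 30.9 CPM, 48.7, 34.7, 40.1, 43.3 and 41.5 CPM and 37.5, 28.5, 34.4, 24.5 and 32.6 CPM in the same order of groups, and was called in no comparison (-0.01 ± 0.15 for isotype against PBS, -0.40 ± 0.15 for anti–IL-4Rα against isotype; edgeR adjusted p = 0.975 and 0.0867).

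**Figure D3:**
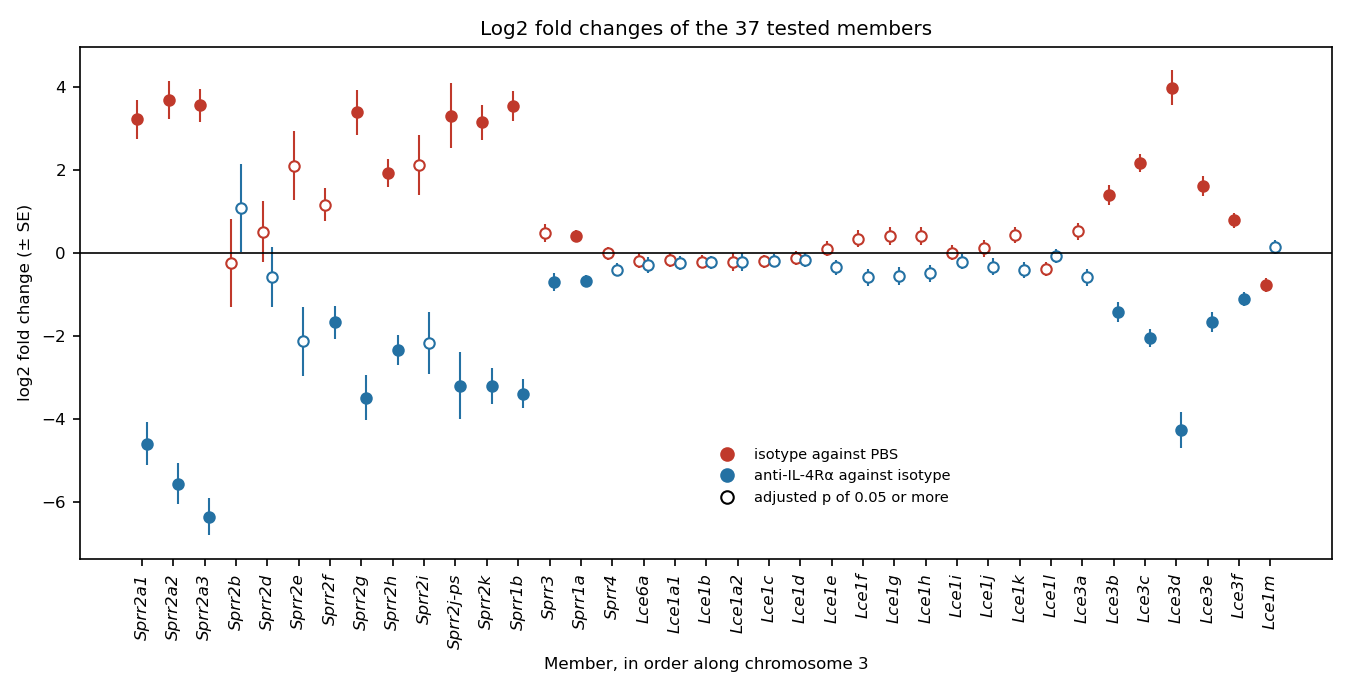
Log2 fold change ± SE (edgeR) of each tested member in order along chromosome 3, for isotype against PBS (red) and anti–IL-4Rα against isotype (blue); filled points passed an adjusted p of 0.05. The members with filled points in both comparisons lie above 0 in red and below 0 in blue. Among them are *Sprr1b*, *Sprr2a1* to *Sprr2a3* and *Lce3b* to *Lce3f*. *Sprr2b* and *Sprr2d* have wide errors around 0. The *Lce1* points lie from -0.58 to 0.44, except the filled red point of *Lce1m* at -0.76.

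The *Lce3* genes, whose human counterparts are known to be induced when the skin barrier is broken, responded to different degrees. *Lce3d* was nearly absent outside the isotype group, at 0.591, 0.339, 0.937, 0.153 and 0.404 CPM in the PBS libraries and 0.511, 0.362, 0.379, 0.593 and 0.165 CPM in the anti–IL-4Rα libraries, and was at 5.25, 6.35, 13.2, 6.65 and 7.22 CPM in the isotype libraries. The isotype libraries stood well clear of both other groups, and its 15.8-fold rise (log2 fold change 3.98 ± 0.42 SE, edgeR adjusted p = 0.000214) was the largest fold change of any member for isotype against PBS. It was 19.2-fold lower in the anti–IL-4Rα group (log2 fold change -4.26 ± 0.43 SE, edgeR adjusted p = 0.000113). *Lce3c* was at 5.5, 3.83, 4.69, 2.85 and 3.13 CPM in the PBS libraries, 13.7, 18, 27.5, 15.7 and 15.7 in the isotype libraries and 4.56, 3.24, 5.29, 4.4 and 4.39 in the anti–IL-4Rα libraries. Again the isotype libraries were above all others, 4.52-fold over the PBS group (log2 fold change 2.18 ± 0.22 SE, edgeR adjusted p = 0.000177) and 4.14-fold over the anti–IL-4Rα group (-2.05 ± 0.22, adjusted p = 0.000192).

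*Lce3e* was at 5.83, 5.14, 6.03, 4.13 and 3.6 CPM in the PBS libraries, 13.7, 15.5, 22.6, 11.4 and 12.7 in the isotype libraries and 5.43, 3.34, 7.46, 3.58 and 4.18 in the anti–IL-4Rα libraries, a 3.06-fold rise (log2 fold change 1.62 ± 0.24 SE, edgeR adjusted p = 0.00155) and a 3.15-fold fall (-1.66 ± 0.24, adjusted p = 0.00213). *Lce3b* was at 5.58, 3.07, 5.24, 2.9 and 3.27 CPM, 11.5, 11.5, 12.4, 7.4 and 10.1 CPM and 4.51, 2.37, 5.32, 3.65 and 4.01 CPM in the same order, 2.64-fold up (log2 fold change 1.40 ± 0.24 SE, edgeR adjusted p = 0.00274) and 2.67-fold down (-1.42 ± 0.24, adjusted p = 0.00441). For both genes, as for *Lce3f*, no isotype library overlapped with either other group. *Lce3f*, the most abundant *Lce3* gene in the PBS group, was at 20.3, 15.1, 17.2, 12.5 and 11.5 CPM, 24.7, 26.8, 34.6, 22.4 and 23.9 CPM and 12.7, 9.54, 16.1, 10.3 and 12.8 CPM, and changed least among the called *Lce3* genes (log2 fold change 0.79 ± 0.17 SE, edgeR adjusted p = 0.0101, then -1.10 ± 0.18, adjusted p = 0.00371). *Lce3a* was at 6.03 to 11.9 CPM in the PBS libraries, 10.3 to 15 in the isotype libraries and 5.69 to 10.6 in the anti–IL-4Rα libraries, ranges that overlapped, and was not called (0.52 ± 0.20 and -0.59 ± 0.20, edgeR adjusted p = 0.0862 and 0.0634). No *Lce3* gene was called between the anti–IL-4Rα and PBS groups, with log2 fold changes of -0.32 to 0.13. Between 55.9% (*Lce3f*) and 74.3% (*Lce3c*) of the 90-base stretches of *Lce3c* to *Lce3f* were unique, against 96.7% and 96.8% for *Lce3a* and *Lce3b*, so part of the reads of *Lce3c* to *Lce3f* could belong to a neighbor. Summed over the 6 genes, *Lce3* was at 27.9 to 49.7 CPM in the PBS libraries, 73.8 to 124 in the isotype libraries and 24.5 to 45 in the anti–IL-4Rα libraries.

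The *Lce1* genes, which sit between the *Sprr* and *Lce3* genes on the chromosome and are expressed in the outer layers of normal epidermis, were with 1 exception not called. *Lce1a1*, the most abundant by length, was at 355, 295, 213, 253 and 249 CPM in the PBS libraries, 218, 234, 324, 223 and 211 in the isotype libraries and 151, 166, 252, 201 and 252 in the anti–IL-4Rα libraries, and the 3 ranges overlapped (log2 fold change -0.17 ± 0.17 SE, edgeR adjusted p = 0.526 for isotype against PBS; -0.24 ± 0.17, adjusted p = 0.339 for anti–IL-4Rα against isotype). *Lce1a2*, *Lce1b*, *Lce1c*, *Lce1d*, *Lce1e*, *Lce1f*, *Lce1g*, *Lce1h*, *Lce1i*, *Lce1j*, *Lce1k* and *Lce1l* were also uncalled in all 3 comparisons. Including *Lce1a1*, their log2 fold changes for isotype against PBS ran from -0.37 (*Lce1l*) to 0.44 (*Lce1k*), with SE of 0.16 to 0.22, and 6 of the 13 were negative. Over all 14 *Lce1* genes they ran from -0.58 to 0.14 for anti–IL-4Rα against isotype. For anti–IL-4Rα against PBS they ran from -0.62 to 0.02 (median -0.27), and in each of these 2 comparisons 1 of the 14 was positive. The 1 *Lce1* gene that was called was *Lce1m*, at 338, 371, 193, 294 and 311 CPM in the PBS libraries, 187, 161, 192, 171 and 177 in the isotype libraries and 131, 167, 229.8, 209.9 and 243 in the anti–IL-4Rα libraries. As 1 of 14 *Lce1* genes called lower for isotype against PBS, it is near the share over all genes tested, 7.49%. Every isotype library was below every PBS library, by a narrow margin for PBS library 3, and *Lce1m* was 1.7-fold lower (log2 fold change -0.76 ± 0.17 SE, edgeR adjusted p = 0.0114). The antibody did not restore it detectably: the anti–IL-4Rα group differed from the isotype group by 0.14 ± 0.17 on the log2 scale (edgeR adjusted p = 0.587) and from the PBS group by -0.62 ± 0.17 (edgeR adjusted p = 0.0609). *Lce1m* is also the *Lce1* gene that lies farthest from the others, beyond *Lce3f*, and the one least alike in transcript sequence, at 59.4% identity to its nearest *Lce1* relative compared with 69.3% to 90.2% for the rest.

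*Lce6a*, the single gene of its kind and placed between *Sprr4* and *Lce1a1*, was at 59, 44.9, 36.6, 38.5 and 37.7 CPM in the PBS libraries, 35.3, 39, 50.5, 35.3 and 30.3 in the isotype libraries and 23.7, 25.9, 38.2, 27.1 and 41.2 in the anti–IL-4Rα libraries. The groups overlapped and no comparison was called (-0.19 ± 0.18, -0.29 ± 0.18 and -0.47 ± 0.18, edgeR adjusted p = 0.509, 0.288 and 0.142). Per 100 *Lce1* counts there were 2.1 to 4.14 *Lce3* counts in the PBS libraries, 6.13 to 7.64 in the isotype libraries and 2.66 to 4.66 in the anti–IL-4Rα libraries. The share of *Lce1* genes in all member counts was 44.4 to 61.3% in the PBS libraries, 28.5 to 36.6% in the isotype libraries and 46.7 to 60.1% in the anti–IL-4Rα libraries. These ratios are taken within a library and do not depend on its depth or on the scaling between libraries.

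**Figure D4:**
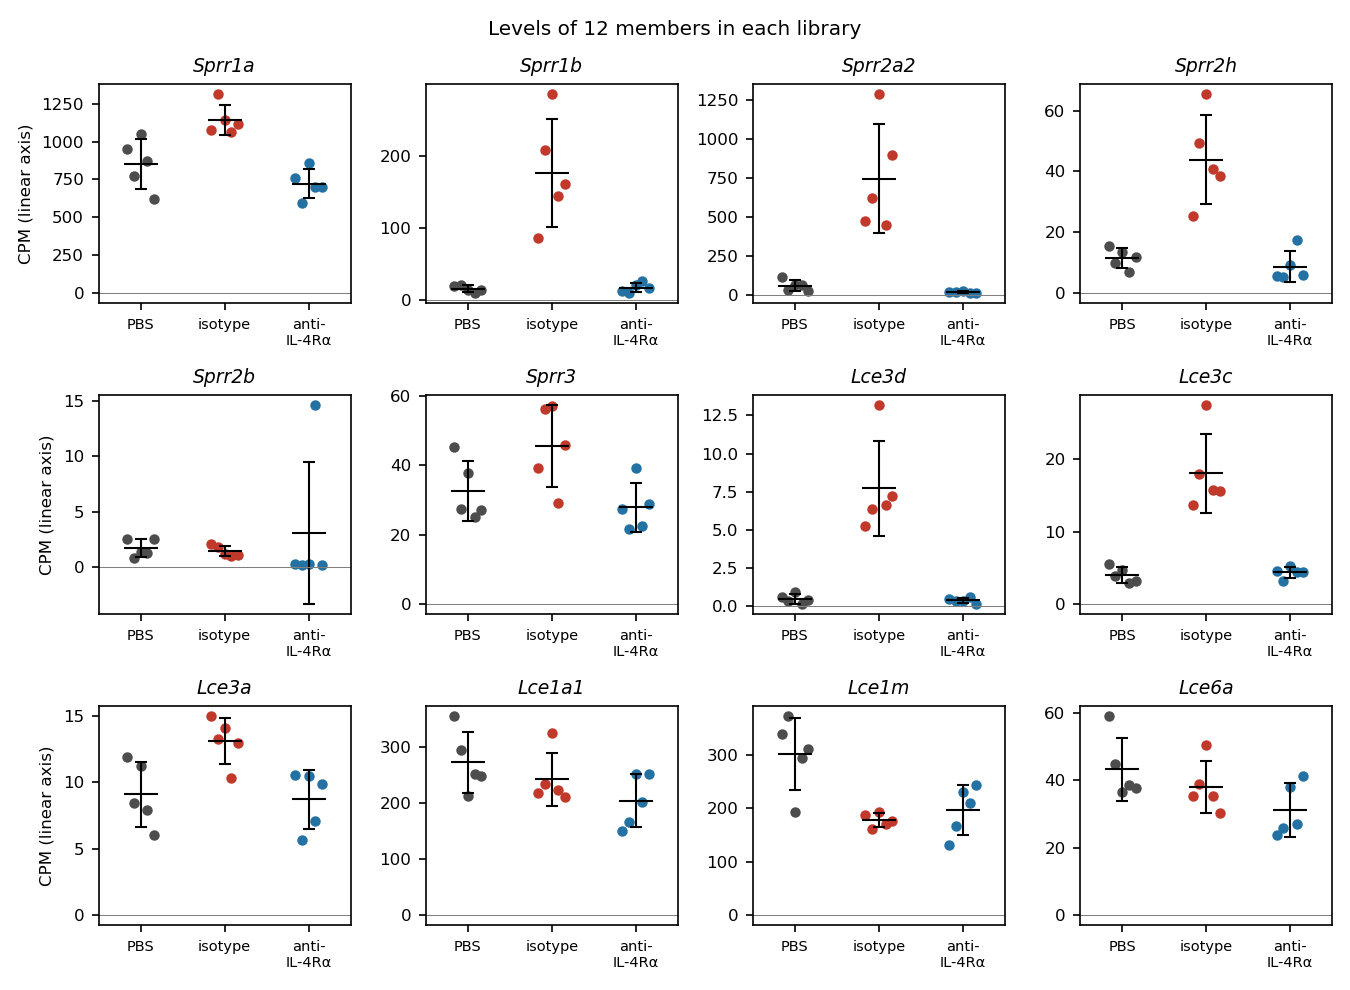
CPM (linear axes) of 12 members in each library; points are libraries, horizontal bars the mean and error bars the SD (n = 5 per group). The isotype libraries of *Sprr1b*, *Sprr2a2*, *Sprr2h*, *Lce3d* and *Lce3c* lie above all others, those of *Lce1m* lie below the PBS libraries, and *Sprr2b* has a single high point in the anti–IL-4Rα group at 14.6 CPM.

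The partners of these proteins in the cornified envelope were tested as a list. Of 23 genes for other envelope proteins and the enzymes that cross-link or process them, 22 were tested, and 1 was higher and 0 were lower in the isotype group than in the PBS group (median log2 fold change 0.08, beside -0.01 over all genes tested, of which 9.53% were called higher). The 1 was *Rptn*, which encodes repetin, a gene of the same chromosome region (log2 fold change 0.78, edgeR adjusted p = 0.0072). *Lor* (loricrin) and *Flg2* (filaggrin-2) were not called (log2 fold change -0.42, edgeR adjusted p = 0.101; -0.45 for *Flg2*, edgeR adjusted p = 0.0825). In the anti–IL-4Rα group 6 were lower, against 8.13% of all genes tested, and 0 higher than in the isotype group (median -0.36): *Rptn* (log2 fold change -0.82, edgeR adjusted p = 0.00891), the transglutaminases *Tgm1* (log2 fold change -0.64, edgeR adjusted p = 0.0246) and *Tgm3* (log2 fold change -0.83, edgeR adjusted p = 0.0168), *Casp14*, a caspase of keratinocyte cornification (log2 fold change -0.80, edgeR adjusted p = 0.0193), *Ivl*, which encodes involucrin (log2 fold change -0.56, edgeR adjusted p = 0.019), and *Cdsn*, which encodes corneodesmosin (log2 fold change -0.35, edgeR adjusted p = 0.0448). None was called between the anti–IL-4Rα and PBS groups (median -0.27).

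Of 17 transcription factors of late keratinocyte differentiation, all tested, 5 were higher, against 9.53% of all genes tested, and 0 lower in the isotype group (median log2 fold change 0.07). Among them were *Fosl1*, an AP-1 subunit (log2 fold change 2.20, edgeR adjusted p = 0.021), *Maf* (log2 fold change 0.49, edgeR adjusted p = 0.0352), *Ets1* (log2 fold change 0.39, edgeR adjusted p = 0.032) and *Ovol1* (log2 fold change 0.38, edgeR adjusted p = 0.0435). In the anti–IL-4Rα group 6 were lower than in the isotype group, against 8.13% of all genes tested, and 0 higher (median -0.29), among them *Ovol1* (log2 fold change -0.61, edgeR adjusted p = 0.00976), *Grhl3* (log2 fold change -0.54, edgeR adjusted p = 0.0119) and *Junb*, an AP-1 subunit (log2 fold change -0.47, edgeR adjusted p = 0.0385) as well as *Prdm1* and *Zfp750*. *Fosl1* was not called there, and *Grhl3* alone was called against the PBS group (log2 fold change -0.43, edgeR adjusted p = 0.0497).

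Of the 12 genes of the IL-4Rα pathway, all tested, 6 were higher in the isotype group, against 9.53% of all genes tested, and 1 lower, against 7.49% (median log2 fold change 0.51). The ligands *Il4* and *Il13* were scarce, at 0.341 and 0.854 mean CPM in the isotype group, and both were higher than in the PBS group (log2 fold change 1.74, edgeR adjusted p = 0.0165 for *Il4*; log2 fold change 1.30, edgeR adjusted p = 0.00717 for *Il13*). The receptor chains *Il4ra* (log2 fold change 0.74, edgeR adjusted p = 0.0342) and *Il2rg* (log2 fold change 0.85, edgeR adjusted p = 0.01) and the feedback inhibitors *Socs1* (log2 fold change 0.81, edgeR adjusted p = 0.00647) and *Socs3* (log2 fold change 0.75, edgeR adjusted p = 0.0199) were also higher, and *Il13ra2*, a decoy receptor for IL-13, was lower (log2 fold change -0.54, edgeR adjusted p = 0.0295). In the anti–IL-4Rα group 5 were lower than in the isotype group, against 8.13% of all genes tested, and 0 higher (median -0.42): *Il4ra* (log2 fold change -1.06, edgeR adjusted p = 0.0119), *Socs1* (log2 fold change -0.80, edgeR adjusted p = 0.00993), *Socs3*, *Il13ra1* and *Il13ra2* (log2 fold change -0.78, edgeR adjusted p = 0.00983). *Stat6* itself was called in neither comparison. *Il13ra2* was the only one called against the PBS group (log2 fold change -1.32, edgeR adjusted p = 0.00262).

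Of 12 genes known to rise in activated or wounded epithelium, 11 were tested, and 5 were higher in the isotype group, against 9.53% of all genes tested, and 0 lower (median log2 fold change 0.67). They were *Krt16* (log2 fold change 3.18, edgeR adjusted p = 0.00108), *Krt6b* (log2 fold change 0.72, edgeR adjusted p = 0.00985), *Krt6a* (log2 fold change 0.67, edgeR adjusted p = 0.00973) and *Krt17* (log2 fold change 0.37, edgeR adjusted p = 0.0404), keratins of hyperproliferative epithelium, and the protease inhibitor gene *Stfa1* (log2 fold change 2.67, edgeR adjusted p = 0.000177), which was scarce at 0.432 mean CPM in the isotype group. The same 5 genes were lower with anti–IL-4Rα than with isotype (8.13% of all genes tested; median -0.75), including *Krt16* (log2 fold change -2.57, edgeR adjusted p = 0.00479) and *Stfa1* (log2 fold change -3.09, edgeR adjusted p = 4.6e-05), and none of the 11 was called against the PBS group (median -0.16).

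The tissue carried markers of conjunctival epithelium (7 of 7 tested, summed level 2672 to 4352 CPM in the PBS libraries, 2837 to 3771 in the isotype libraries and 2469 to 3962 in the anti–IL-4Rα libraries) and also of epidermis, as eyelid skin would give. The 10 epidermal markers, 4 of which are also in the list of envelope partners, summed to 14196 to 22703, 14498 to 19131 and 10537 to 17569 CPM in the same order, with 0 of 10 called for isotype against PBS and 2 lower for anti–IL-4Rα against isotype. The 10 basal epithelial markers summed to 14849.9 to 18106, 15464 to 18965 and 12128 to 16366 CPM, with 1 higher and then 3 lower. Markers of hair follicle reached 10828 CPM in isotype library 2 and no more than 1964 CPM elsewhere, and all 7 muscle markers were lower in the isotype group than in the PBS group. Lacrimal acinar markers, of which 8 of 12 were tested and 3 had at most 3 counts in any library, varied most, from 589 to 27914 CPM in the PBS libraries, 376 to 18128 in the isotype libraries and 1147 to 76944 in the anti–IL-4Rα libraries. With the epidermal score as a covariate in the same fit, 23 members were higher in the isotype group and 1 lower, and 15 were lower in the anti–IL-4Rα group. With the lacrimal score these counts were 18, 1 and 13, and with library sizes set by the basal epithelial markers 14, 1 and 17. Shares of all genes called in these fits are not given here. A count that differs from that of the edgeR fit that defined the calls is thus no result about the members. Of the remaining marker lists, corneal epithelium had 1 of 4 tested lower for isotype against PBS and 2 higher for anti–IL-4Rα against isotype, goblet cells had 2 of 7 higher and then 1 lower, leukocytes had 2 of 6 higher and then 0 called, and the meibomian gland had 0 of 8 called in both. The part of the glands, hair and muscle in the members' levels was otherwise not tested.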

How the data were processed

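RNA-Seq of 15 conjunctival libraries was re-analyzed. To make the deposited estimated counts per gene, the authors trimmed adaptors, removed reads of low quality and, using Omicsoft's Array Studio, kept uniquely mapped pairs on mouse build B38 under Ensembl gene annotation. How reads shared by genes were counted is not given in the sources used here. The deposited counts are not scaled, and 26 of 37 tested members have fractional values. Counts were rounded. Genes with 10 counts in at least 5 libraries were fitted in edgeR 4.0.16 (TMM factors, quasi-likelihood test, 3 groups in one model, R 4.3.3). Single members were also compared by exact permutation tests over 252 arrangements. Gene positions and lengths came from GENCODE M21, which is older than the gene model of the study, and motif windows from RefSeq. Transcripts were aligned with Biopython 1.88. Every member is named by subfamily, with values per library for called members and for the most abundant member of a subfamily without any. Genes that are no members came from lists of envelope partners, differentiation regulators, the IL-4Rα pathway, activated keratinocytes and cell type markers. One gene of the regulator list is not reported here by name. Members and lists were chosen with earlier results of these data known. Replicate numbers did not pair the libraries, and no pair of libraries within a group agreed within counting error. DESeq2 1.42.0 and limma 3.58.1 served as alternatives.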

Additional observations from a re-analysis of the deposited data

Results flagged for a closer look

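For each of the 37 tested members and each group of 5 libraries, the gap between the highest or lowest library and its neighbor was compared with the range of the group on the log2 CPM scale. Of 111 groups, 13 had a gap above Dixon's critical value of 0.71, where chance gives about 1 in 20, and members of a subfamily share their libraries and are not independent. Of these, 7 were *Lce1* genes that were highest in isotype library 3: *Lce1a1* at 324 CPM (others 211 to 234), *Lce1c* at 188 CPM (others 127 to 137), *Lce1d* at 176 CPM (others 115 to 128), *Lce1e* at 107 CPM (others 64.8 to 73.6), *Lce1h* at 51 CPM (others 26.2 to 31), *Lce1i* at 75.2 CPM (others 48 to 54.1) and *Lce1l* at 62.3 CPM (others 46.8 to 48.7). Another 4 were *Sprr2* genes that were highest in anti–IL-4Rα library 4: *Sprr2b* at 14.6 CPM (others 0.142 to 0.277), *Sprr2d* at 36.5 CPM (others 1.3 to 3.42), *Sprr2i* at 2.99 CPM (others 0.142 to 0.192) and *Sprr2j-ps* at 0.691 CPM (others 0 to 0.0291). *Lce1k* was highest in PBS library 1, at 23.4 CPM (others 12.5 to 13.7), and *Sprr2k* was lowest in PBS library 4, at 0 CPM (others 0.0703 to 0.124). The cause was not tested for any of them.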

How the results depend on the processing

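With 5 libraries per group, the 14 members called higher in the isotype group included 13 that stayed called under all 11 other fits and in every fit that left out 1 library in which they were tested; the exception was *Sprr1a*. The 13 include *Sprr2k* and *Sprr2j-ps*, which passed the filter only through the isotype libraries. The number of members called for isotype against PBS was 15, and 13 to 18 when 1 library was left out. It moved to 24 with the epidermal marker score as a covariate. For anti–IL-4Rα against isotype it was 16, with 13 to 20 over the other fits and 13 to 19 with 1 library left out. For anti–IL-4Rα against PBS it was 2, and 1 to 6 with 1 library left out, the 6 without anti–IL-4Rα library 4. It was 1 with the linear model on log2(FPKM + 1), with the lacrimal acinar score, with only the 2 groups compared and with the replicate block, 0 with the epidermal score, and 3 with DESeq2 and with voom. Requiring a fold change of at least 1.5 as well gave 14, 16 and 2. Shares of all genes tested are given only for the edgeR fit that defined the calls, so counts from other fits cannot be set against them. With 1 library left out, the log2 fold change of *Sprr2b* ran from -2.77 to 1.39 against the isotype group and from -3.002 to 1.16 against the PBS group, and that of *Sprr2j-ps* from -2.67 to 0.46 against the PBS group; the reversals and lowest values were those without anti–IL-4Rα library 4. The replicate numbers did not pair the libraries: deviations of libraries with the same number correlated at -0.38 to 0.45, 4 of 15 pairs exceeded 0.1, and 4 of 15 libraries correlated best with their own number. With the replicate number as a block (replicate block), 16, 19 and 1 members were called. Depth limits *Sprr2k*, *Sprr2j-ps* and *Sprr2a1*, which had as few as 0 to 3 counts in single libraries.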

Other observations

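In anti–IL-4Rα library 4, 31 tested genes had a log2 CPM of at least 1 that exceeded the next library of its group by at least 1, and 5 of the 31 were members (*Sprr2b*, *Sprr2d*, *Sprr2e*, *Sprr2g* and *Sprr2i*). Of the genes that are no members, those farthest above the next library were *Alox8* at 44.6 CPM against 1.37 to 3.1 in the other 4 libraries, *Uox* at 3.31 CPM against 0.0452 to 0.218, *S100a9* at 52.3 CPM against 1.51 to 4.3, *Cxcl3* at 4.67 CPM against 0.596 to 1.06 and *Slc26a4* at 4.91 CPM against 0.596 to 1.13. From the lists used in the report, *Krt16* at 239.9 CPM against 38 to 84.9, *Fosl1* at 7.53 CPM against 0.753 to 2.75 and *S100a8* at 30.5 CPM against 1.3 to 12.4 were also among the 31. These genes were chosen after their values were seen.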
